A study of Mus musculus with 6 samples.

Results

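Genes for the secreted side of Wnt signalling were followed through a chromatin immunoprecipitation and sequencing (ChIP-seq) screen for Bcl6, a zinc finger transcriptional repressor. They were 32 of the 21887 nuclear protein-coding genes of the gene table, taken by name as the 19 Wnt ligands, 2 genes for ligand secretion and 11 secreted modulators. A gene counted as having a peak when the authors' gene list tied a peak to it. The screen compared 3 Bcl6 ChIP libraries with 3 input DNA libraries. All came from cortical progenitors differentiated from A2 lox.Cre Bcl6 mouse embryonic stem (ES) cells, which carry a tetracycline-inducible Bcl6 transgene. ChIP and input cells alike had received cyclopamine, a Hedgehog pathway inhibitor, at 400 ng/ml from day 2 to day 10, and 1 µg/ml doxycycline to induce Bcl6 for 24 h at differentiation day 12. Uninduced cells were not analysed here, so peaks of induced and of endogenous Bcl6 cannot be told apart. The sources used here do not say whether the line was 1 clone, and without expression values the cell identity was not checked against marker genes.

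Wnt proteins are lipid-modified secreted ligands. The enzyme encoded by Porcn acylates them in the endoplasmic reticulum, and the carrier encoded by Wls takes them to the cell surface, where they bind Frizzled receptors and Lrp5 or Lrp6 coreceptors to stabilise beta-catenin or to act through other branches. Secreted frizzled-related proteins (Sfrp1, Sfrp2, Sfrp5 and Frzb) and Wif1 bind the ligands, Dickkopf proteins such as Dkk1 block the coreceptors, and R-spondins raise receptor levels at the membrane. In the developing cortex, Wnt signals from the dorsal midline support progenitor proliferation and dorsal identity.

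Peaks were called on pooled libraries, so every value is for 1 pool and has no replicate error. The pooled ChIP held 56836596 tags, of which 11718276 were kept at 1 tag per position, and the pooled input held 12808138 tags, of which 5048582 were kept. Of the 3878 peaks in all, 3875 had a listed gene. Intervals given below cover counting error alone. Binomial intervals treat the genes as independent draws, although each list was counted in full and neighbouring genes can share a peak.

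Peaks were listed for 5 of the 32 genes (15.6%, exact 95% binomial interval 5.28 to 32.8%), against 20.1% of all protein-coding genes, a share inside that interval. The 5 were Porcn, Wnt9a, Wnt5b, Wnt10a and Wnt6, with 4 peaks between them because Wnt10a and Wnt6 shared 1. The Porcn peak was strong. The ligand peaks were near or below the median of all peaks by fold, and below it by score and by tags. The other 27 genes had none: the ligand genes Wnt1, Wnt2, Wnt2b, Wnt3, Wnt3a, Wnt4, Wnt5a, Wnt7a, Wnt7b, Wnt8a, Wnt8b, Wnt9b, Wnt10b, Wnt11 and Wnt16, the carrier gene Wls, the antagonist genes Sfrp1, Sfrp2, Sfrp5, Frzb, Dkk1, Dkk2, Dkk3 and Wif1, and the R-spondin genes Rspo1, Rspo2 and Rspo3. Dkk3 is grouped with the antagonists by family.

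At 2 of the ligand genes the peak covered the whole 300-base promoter window of RefSeq (GRCm38.p6, the assembly of mm10). The 250 bases before each start site are shown because they are the promoter sequence under a Bcl6 peak that is known here, with each CG dinucleotide in capitals. That of Wnt9a lies on the plus strand at chr11:59306680-59306929, and that of Wnt5b on the minus strand at chr6:119544348-119544597.
Wnt9a: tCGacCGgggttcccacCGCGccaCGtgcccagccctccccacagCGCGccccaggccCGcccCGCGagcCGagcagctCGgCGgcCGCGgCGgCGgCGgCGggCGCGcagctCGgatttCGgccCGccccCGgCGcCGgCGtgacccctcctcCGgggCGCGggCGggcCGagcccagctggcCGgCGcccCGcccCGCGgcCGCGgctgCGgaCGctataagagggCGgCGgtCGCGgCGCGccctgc
Wnt5b: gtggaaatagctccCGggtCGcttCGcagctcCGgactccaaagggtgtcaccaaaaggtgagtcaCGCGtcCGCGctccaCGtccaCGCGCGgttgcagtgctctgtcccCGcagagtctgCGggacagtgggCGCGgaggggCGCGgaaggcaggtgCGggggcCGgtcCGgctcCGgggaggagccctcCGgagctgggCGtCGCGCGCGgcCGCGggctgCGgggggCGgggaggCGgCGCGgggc
The Wnt9a stretch held 48 CG dinucleotides at 84.4% G and C, and the Wnt5b stretch 35 at 75.2%. The start site that follows each printed run was also the one from which the authors' list measured the peak distance. In the gene table both genes begin farther upstream, Wnt9a at 11:59306849 and Wnt5b at 6:119544824. The whole Wnt5b stretch and the last part of the Wnt9a stretch therefore lie inside those gene bodies.

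Porcn, the acyltransferase gene needed for ligand release, had the strongest peak, on chromosome X from 8206380 to 8208150 (mm10). Enrichment over the local input background was 78.05-fold, 3.67 times the median of 21.28-fold over all 3878 peaks (quartiles 16.8 and 27.2), as the authors' peak caller computed both. It held 115 tags (exact 95% Poisson interval 94.9 to 138), or 64.9 tags per kb (53.6 to 77.9). That was 10.4 times the mean of 6.27 kept tags per kb of effective genome, while the median over all peaks was 40.0 tags per kb. The Porcn peak ranked 522 of 3878 by tags. By fold it ranked 42 of 3878, and 6 of the 2171 peaks with a listed transcription start site (TSS) within 1 kb. Its p-value score (−10 log10 of the caller's p-value) of 252 ranked 137, against a median of 71.7. It was also the strongest of the 49 peaks on chromosome X by fold, where the next had 72.9-fold, and by score. Peaks on chromosome X had a median of 22.6-fold, against 21.28-fold for the 3829 peaks elsewhere.

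The Porcn peak lay mostly before the gene. Its centre was 764 bp upstream of the listed TSS and its summit 1042 bp upstream. Of its 1771 bp, 169 lay inside the Porcn gene. The centre lay in the body of the lncRNA gene Gm33135 (X:8205707-8217912), which the authors' list did not name for the peak, and the next protein-coding gene, Ebp, was 13.8 kb from the peak centre. The empirical false discovery rate (FDR) that the authors deposited for this peak was 2.19%, above the median of 0.86% over all peaks. The peak of Wnt10a and Wnt6 had the highest FDR of the 4, 2.71%, and those of Wnt9a and Wnt5b had 0.8% and 0.66%. Wls, which acts after Porcn on the same ligands, had no listed peak, and the nearest peak centre to its gene was 2.52 Mb away.

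Wnt9a, a ligand gene best known from limb joints and skeletal development, had a peak across its start site on chromosome 11 from 59306283 to 59307462. The centre was 58 bp upstream of the TSS and the summit 22 bp downstream. It held 38 tags (26.9 to 52.2), or 32.2 tags per kb (22.8 to 44.2), at 21.61-fold, close to the median fold of all peaks. All peaks had a median of 58 tags (quartiles 41 and 85). Its score of 62.8 ranked 2503 of 3878.

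Wnt5b, which encodes a ligand that mostly acts without beta-catenin, had a peak on chromosome 6 from 119543243 to 119545052, with the centre 200 bp and the summit 366 bp downstream of the TSS. It held 42 tags (30.3 to 56.8), or 23.2 tags per kb (16.7 to 31.4), at 19.70-fold and a score of 66.2. The gene model Gm52875 (6:119537938-119544347) has its higher coordinate on the base where the list places the Wnt5b TSS. Its strand was not examined, and the authors' list did not name it. The long Wnt5b gene of the gene table, 112294 bp, held a second peak centre, of 15.37-fold and 90 tags. That peak lay 50 bp from the TSS of the nested gene Fbxl14 and was listed for Fbxl14 alone.

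Wnt10a and Wnt6, neighbouring ligand genes, were tied to a peak between their start sites on chromosome 1 from 74783980 to 74784880. Its centre was 7.09 kb upstream of Wnt10a and 12.5 kb downstream of the TSS of Wnt6, inside the Wnt6 gene and 892 bp before its end. It was the weakest of the 4, with 33 tags (22.7 to 46.3), 15.96-fold and a score of 52.2. The score was just above the caller's cutoff of 50, and 7.68% of all peaks scored lower. Its 901 bp gave 36.6 tags per kb (25.2 to 51.4), an interval that overlaps those of the Wnt9a and Wnt5b peaks. The intervals of the 3 ligand peaks all lie below that of the Porcn peak.

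**Figure D1:**
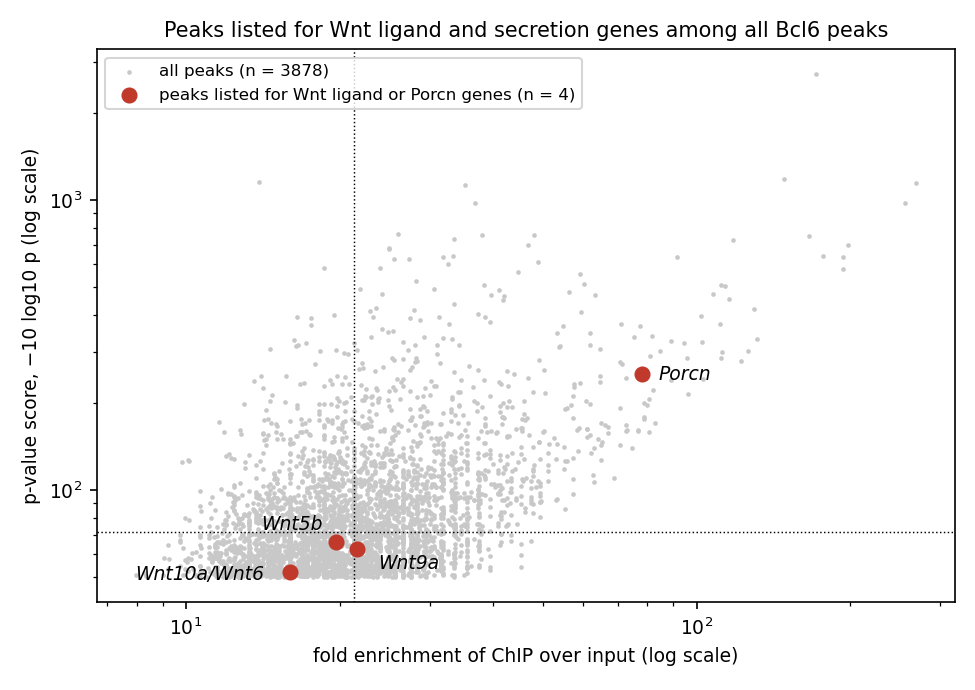
Fold enrichment of the pooled ChIP over input (x axis) against the p-value score (y axis), both on log scales, for all 3878 peaks (grey) and for the 4 peaks listed for these genes (red), with dotted lines at the medians of all peaks. The Porcn peak stands at 78.05-fold, and the 3 ligand peaks lie between 15.96- and 21.61-fold, below the median score.

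The 4 peaks had a median of 20.7-fold (15.96 to 78.05), against 21.28-fold for all peaks, and 19.70-fold for the 3 ligand peaks alone. Their median score was 64.5, against 71.7 for all peaks. Their median width was 1476 bp, against 1405 bp, and none was over 2 kb wide, while 885 of all 3878 peaks were. Only the Porcn peak reached the median score of the screen.

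**Figure D2:**
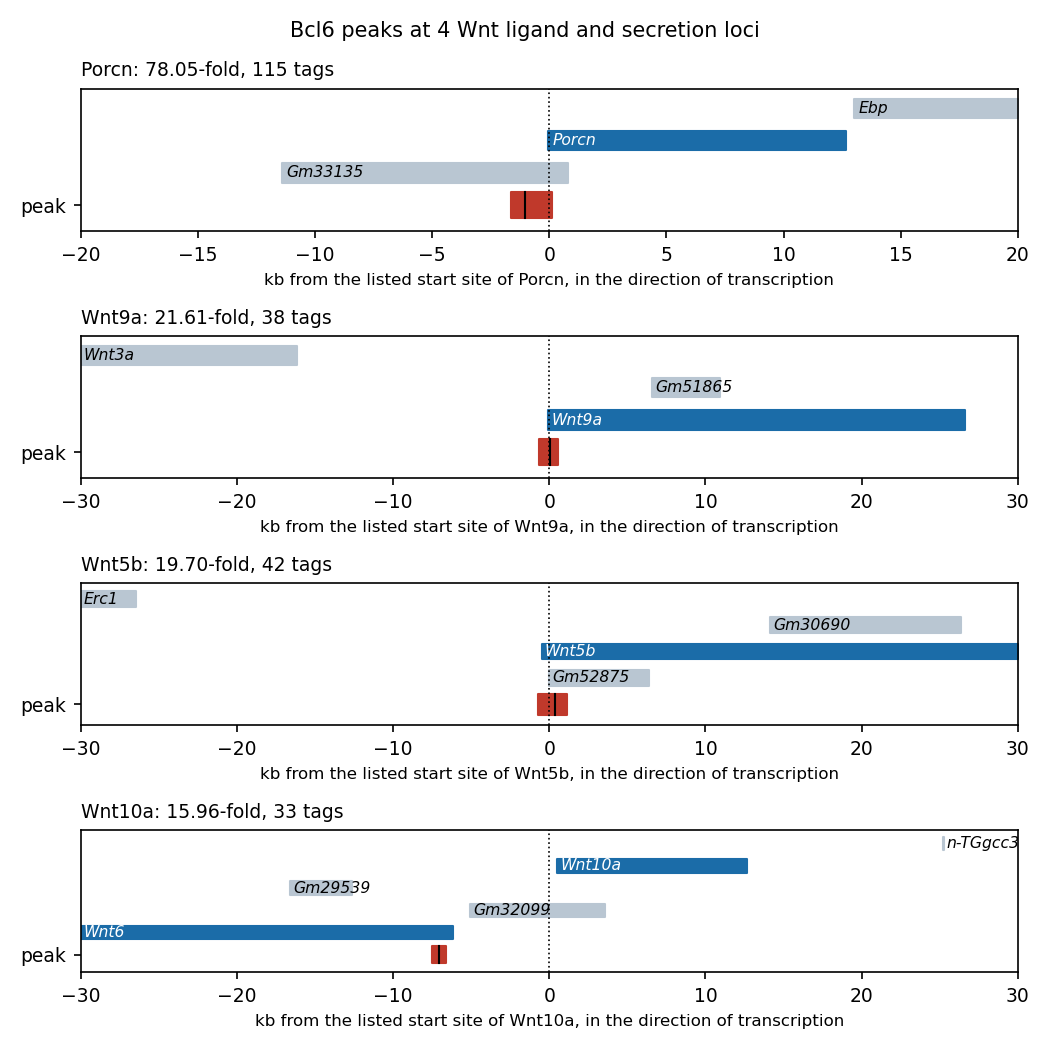
Position of each peak (red, summit in black) relative to the listed start site of the named gene (dotted line), in kb along the direction of transcription; genes of the gene table listed for the peak are in dark blue and other genes in light blue. The peaks of Wnt9a, Wnt5b and Porcn cover the listed start site, that of Porcn lying mostly before it, and that of Wnt10a lies inside the end of Wnt6.

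Promoter sites were found at Porcn, Wnt9a and Wnt5b. These 3 genes (9.38%) had a peak centre within 1 kb of the listed TSS, against 10.8% of all protein-coding genes. Within 5 kb the count was the same 3, against 12.8%. With the summit in place of the centre Porcn falls outside 1 kb, which leaves 2 genes.

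By role, the ligands had a listed peak in 4 of 19 cases (21.1%, exact interval 6.05 to 45.6%) and the secretion genes in 1 of 2. Secreted antagonists had 0 of 8 (upper limit of the exact interval 36.9%) and R-spondins 0 of 3 (upper limit 70.8%). The intervals of all 4 roles overlap and contain the 20.1% of all protein-coding genes, and the difference between roles was not tested. A further list held 14 modulators outside the 32, such as Sost, Notum and Cer1, and also the cell-surface proteins Gpc3 and Gpc4. It had 1 of 14 (exact interval 0.181 to 33.9%, which holds the 20.1% of all protein-coding genes). That was Draxin, an axon guidance protein that also antagonises Wnt, with 23.99-fold at 28.5 kb downstream of its TSS and 19.70-fold at 654 bp upstream.

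On the receiving side of the pathway, receptors and their regulators at the membrane had a peak in 10 of 25 cases (40.0%, exact interval 21.1 to 61.3%, against 20.1% of all protein-coding genes), 7 of them within 1 kb of the TSS. Intracellular transducers had 15 of 32 (46.9%, 29.1 to 65.3%), 6 of them within 1 kb. Within 1 kb these are 28.0% of receptors and 18.8% of transducers, against 10.8% of all protein-coding genes. The strongest peaks of the receptor list were those of Kremen1, a receptor for Dickkopf proteins (41.22-fold, 168 bp from the listed TSS), Ryk, a Wnt-binding receptor kinase homologue (38.42-fold, 108 kb), and Fzd7, a Frizzled receptor (33.49-fold, 26.5 kb). This Fzd7 peak held 28 tags and lay nearer to the listed TSS of Gm973, at 7656 bp. The Fzd7 peak near its own TSS, at 915 bp, had 7.98-fold, the lowest fold of all peaks. Those of the transducers were listed for Bcl9, a beta-catenin coactivator (41.22-fold, 387 bp), Tle3, a corepressor of Tcf factors (37.23-fold, 536 kb), and Tcf7l2, a nuclear effector (35.46-fold, 153 kb). The median over all peaks of these lists was 24.4-fold for 12 receptor peaks and 25.3-fold for 21 transducer peaks. The difference between the 32 genes and these lists was not tested. Porcn had a higher fold than any gene of the 3 lists.

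**Figure D3:**
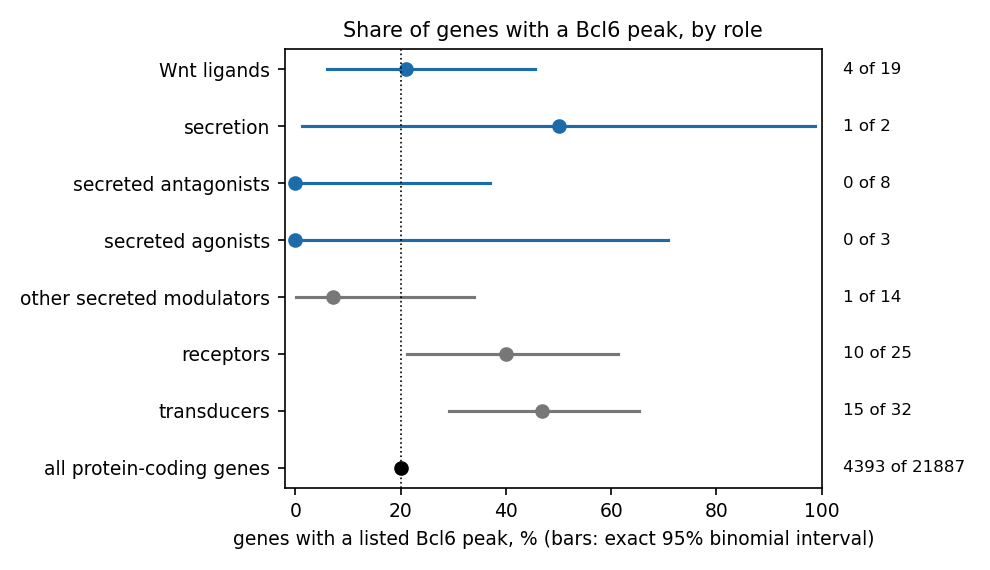
Share of genes with a listed Bcl6 peak (x axis, percent) for each role (rows), with exact 95% binomial intervals as bars and the count at the right; the dotted line is the share of all protein-coding genes. Ligands had 4 of 19, antagonists 0 of 8 and R-spondins 0 of 3, and the receptor and transducer rows, with 10 of 25 and 15 of 32, lie to the right of the line. The row of other secreted modulators includes the cell-surface proteins Gpc3 and Gpc4.

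Several Wnt genes sit in pairs in the genome, and distances from the gene body to the nearest peak centre show what the gene list leaves out. Wnt3a, a ligand that acts through beta-catenin and is made in the cortical hem, had no listed peak, yet the Wnt9a promoter peak was 16.1 kb from its gene. Wnt10b and Wnt1, a pair on chromosome 15, were 7.84 and 27.0 kb from a peak of 17.22-fold that was listed for Arf3 alone. By contrast Wnt3 and Wnt9b on chromosome 11 were 411 and 364 kb from their nearest peak, listed for Arhgap27. The authors' list named none of these peaks for Wnt3a, Wnt10b, Wnt1, Wnt3 or Wnt9b.

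Other genes lay on both sides of the protein-coding median of 132 kb. Wnt4 was 57.8 kb from a peak of 23.80-fold listed for Cdc42, and Wnt8b, a ligand gene of the cortical hem and hippocampal primordium, 68.6 kb from a peak of 33.69-fold listed for Pax2 and Hif1an. Wnt7a and Wnt7b, ligands of cortical progenitors and neurons, were 206 and 199 kb from a peak. The strongest nearest peak of a gene without a listed peak, of 61.70-fold and 131 tags, was 326 kb from Wif1 and was listed for Hmga2 and 4921513I03Rik. For 6 of the 32 genes (18.8%) no peak centre lay within 1 Mb, against 16.6% of protein-coding genes. These were Wnt5a, Dkk1, Frzb, Wls, Rspo2 and Wnt16, with 4.65 Mb the longest distance, at Wnt16.

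Over the 32 genes the median distance was 203 kb (quartiles 50.1 and 438 kb), against 132 kb (18.9 and 583 kb) for all protein-coding genes. For the 19 ligands it was 127 kb, and for the 11 secreted modulators 381 kb. A peak centre in the gene body or within 5 kb of it was found for 4 genes, Wnt5b, Wnt6, Wnt9a and Porcn (12.5%), against 18.4% of protein-coding genes. Within 50 kb the count was 8 (25%), against 35.1%.

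**Figure D4:**
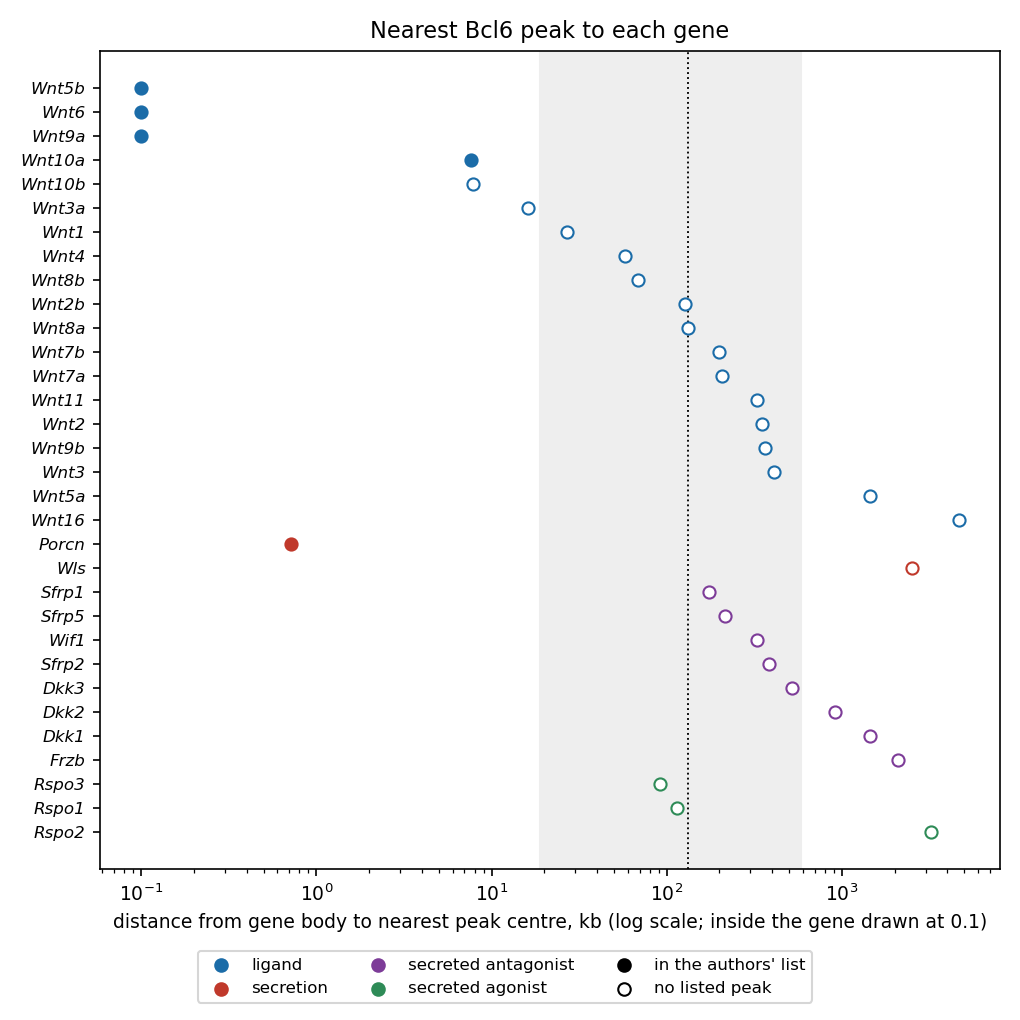
Distance in kb from each gene body to the nearest peak centre (x axis, log scale) for the 32 genes (rows, grouped by role), filled where the authors' list ties a peak to the gene; the dotted line and the grey band are the median and the quartiles of all protein-coding genes. Peak centres inside a gene are drawn at 0.1 kb. Of the modulators only Rspo3 and Rspo1 lie left of the dotted line, and Wnt16 lies farthest right at 4.65 Mb.

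RefSeq promoter windows (250 bases before to 50 after the start site) were matched by symbol for 23 of the 32 genes, with 26 windows in all. The remaining 9 were Porcn, Wnt10a, Wnt5a, Wnt7b, Wnt8a, Sfrp1, Dkk3, Rspo2 and Rspo3. Of the 26 windows 2 overlapped a peak (7.69%), those of Wnt9a and Wnt5b, against 8.84% of all 32851 windows. Windows of these genes were rich in CG dinucleotides, with a median of 24.5 (quartiles 12 and 39.25), against 7 (3 and 20) over all windows and 26 over the 2905 windows that overlapped any peak. The 32851 windows belong to 27025 genes, more than the 21887 protein-coding genes, so this background is wider than the one used above. Wnt9a had 58, the most of the 26, and the Wnt5b window in the peak had 47. Wnt4 with 51, Wnt3a with 45, and Wnt11 with 45 in 1 of its 2 windows were close to them and overlapped no peak.

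Bcl6 is known to bind a palindrome-like site that STAT factors also recognise. The core TTCNNNGAA, which reads the same on both strands, was found in 2 of the 26 windows (7.69%), against 8.30% of all windows and 6.40% of windows that overlapped a peak. Neither of the 2 was in a peak. They are shown because they are the matches among these genes, with the match in capitals and 10 bases on each side, both on the minus strand, at chr2:80447465-80447493 for Frzb and chr6:119467352-119467380 for an inner start site of Wnt5b.
Frzb: actcaaagccTTCTCGGAAggaggagccg
Wnt5b, inner start site: acagcaggccTTCCTGGAAagtcctgtga
The matches begin 87 and 159 bases before the start site. The fuller form TTCCTAGAA, read on the other strand as TTCTAGGAA, was in 0 of the 26 windows, against 0.411% of all windows and 0.310% of windows in a peak. Both forms are contained in the core. The windows of Wnt9a and Wnt5b that lay in a peak held neither form, which says only that these letters are not in those 300 bases. The peaks extend beyond the windows, and their other bases were not searched.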

How the data were processed

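Bcl6 ChIP and input DNA of cortical progenitors were sequenced as 3 libraries each. Bowtie and mm10 are named, without their roles, in the submitters' processing notes. Per the file headers, MACS 1.4.2 called peaks on pooled ChIP against pooled input at a p-value cutoff of 1e-05. The deposited tag counts are unscaled, for the pooled ChIP, and fold enrichment is the authors' ratio over local input background. The ratio to the genome mean takes the deposited counts as counts of kept tags. The score is the authors' −10 log10 p; a spreadsheet had overwritten its column name, and it was identified from the column order and its minimum of 50.03. The FDR is deposited as a percent. GREAT 3.0.0 tied peaks to genes, per the file headers, with a basal domain reaching 5000 bp before and 1000 bp after each TSS and extended by up to 1000000 bp. Its positions were deposited as distances from peak centre to TSS.

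Peak N of the list was taken as row N of the table. Placing 5716 pairs by this rule left a median gap of 44 bp to a gene end. Listed symbols were looked up in the GRCm38.p6 gene table of RefSeq (98.6% of 5801 pairs); 3 pairs on another chromosome were left out, as were mitochondrial genes. The gene table gives no exons, so positions are given by gene body. Counts, medians, distances and exact intervals were computed in Python 3.11.15 with SciPy 1.17.1. No test was made, because a pooled data set has no replicates. Assignment, distance and motif steps were tested on simulated data. The members and lists were chosen with earlier results of these data known. All 32 genes were named, as were the 3 genes with the highest fold of each context list; genes listed for or next to the nearest peaks were named after their values were seen, as were the 3 promoters with the next most CG dinucleotides.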

Additional observations from a re-analysis of the deposited data

How the results depend on the processing

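With only peaks of a score at or above the median, Porcn was the single gene left: the counts with a listed peak, within 1 kb and within 5 kb of the TSS were all 1, against 10.8%, 5.42% and 6.65% of protein-coding genes, and the median was then its 78.05-fold. Receptors had 6, transducers 9 and the other modulators 0 under this setting. The counts stayed within 1.5 times with the nearest listed gene only, and by gene body or 5 kb, chosen after seeing the data. The former left 4 of the 32 genes (without Wnt6), 8 receptors and 10 transducers, against 14.8% of protein-coding genes. The latter left 4 of the 32 genes, 8 receptors and 11 transducers, against 18.4%. An FDR of at most 5% or a width of at most 2 kb could not change the counts of the 32 genes. Their 4 peaks had an FDR of at most 2.71% and a width of at most 1810 bp. The 2 kb limit left 8 receptors and 12 transducers, against 16.6%. A background of all genes changes only the share, to 8.94% with a listed peak and 4.76% within 1 kb. These lie below the 15.6% and 9.38% of the 32 genes, unlike the protein-coding shares. This background holds 49997 genes, and 4393 of its 4468 genes with a listed peak were protein-coding. Its lower shares therefore come from adding genes that were rarely listed, and say nothing about the 32 genes. Without Porcn, also chosen after seeing the data, the median was 19.70-fold. The summit enters only the counts by distance. No paired analysis was possible because the libraries were pooled before peaks were called, and no replicate could be left out for the same reason. The peak of Wnt10a and Wnt6 rests on 33 tags (exact 95% Poisson interval 22.7 to 46.3), and the effect of depth was not tested.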
